A study of Mus musculus with 22 samples.

Results

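Keratins are described here in mouse epithelia and in blood and tissue myeloid cells. The keratins were 10 named genes of the 31053 genes in the count matrices, 5 of type II (Krt4, Krt5, Krt7, Krt8 and Krt80) and 5 of type I (Krt13, Krt14, Krt15, Krt18 and Krt19). They were chosen by name, and each was followed across library kinds and across classes of barcodes that a marker gene other than a keratin defined. A barcode marks the transcripts of 1 droplet, and each captured transcript counts once by its unique molecular identifier (UMI). Levels are CPM, the UMIs of a gene per 1000000 UMIs of a library or class, and since only the 3′ end of a transcript was counted, a level is compared for 1 gene across samples and not between genes.

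The study asked how the sodium leak channel gene Nalcn bears on the release of cells into the blood. The 22 libraries were made with 10x Chromium 3′ v3 chemistry from mice without tumours. ZSGreen-tagged cells sorted from blood (ntCZC) gave 10 libraries, dissociated and pooled organs (tissue: kidney, liver, lung and stomach with epididymis in males or uterus in females) gave 9 libraries with a genotype, and blood mononuclear cells (PBMC) gave 1. In 2 more tissue libraries the title and the strain disagreed on the genotype, and these entered no comparison of groups.

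Every mouse, the controls included, was Prom1-CreERT2;Rosa26ZSG, so a Cre that tamoxifen activates in cells using the Prom1 promoter set which cells and descendants carry the tag. Wild-type (wt) mice had no further label, and the others were labelled Nalcn-het or Nalcn-null. The ntCZC wt libraries were replicates 1 and 3 (male, 571 and 608 days). The ntCZC het libraries were replicates 1, 2 and 4 (male, 610, 551 and 551 days) and 3 (female, 649 days). The ntCZC null libraries were replicates 1, 3 and 4 (female, 551, 612 and 613 days) and 2 (male, 552 days). The tissue wt libraries were replicates 1, 2 and 3 (male, 571, 571 and 608 days) and 4 and 5 (female, 611 and 654 days). The tissue het libraries were replicates 1 and 2 (male, 551 days), the tissue null libraries were replicates 2 (male, 552 days) and 3 (female, 611 days), and the PBMC library was wt (male, 120 days). No label names an animal, so n is a number of libraries and a p-value measures the spread between libraries, which may be technical. Organs were pooled, and without the hashtag counts, which were not analysed here, a barcode cannot be traced to its organ.

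The ntCZC libraries held 50 to 621 barcodes and 161541 to 2600526 UMIs, and the tissue libraries 1856 to 27857 barcodes and 8571019 to 139793927 UMIs. Of 179929 barcodes, 95843 passed a filter of 200 genes or more and 25% mitochondrial UMIs or less, 84.3% in ntCZC and 50.7% in tissue. The ntCZC wt replicate 3 stood apart, with a median of 325 UMIs and 45 genes over 77 barcodes, and results that rest on it are given without it. The tissue library labelled null replicate 3, labelled female with uterus, held 221 barcodes of the epididymal gate described below, which goes against its label. Over the 231 pairs of libraries the median pair shared 1 barcode sequence, and the most that a pair shared was 226 (at most 2.60% of the smaller library).

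Keratins are the proteins of epithelial intermediate filaments, and each filament is built from pairs of a type I and a type II chain. Krt8 and Krt18 form the usual pair of simple, single-layered epithelia, often with Krt7 and Krt19 in ducts and mucosae. Krt5 pairs with Krt14 or Krt15 in the basal layer of stratified and pseudostratified epithelia, and Krt4 with Krt13 in the upper layers of lining epithelia that do not cornify. Krt80 is a type II keratin that lies apart from this scheme, with no settled type I partner. Filaments anchor at desmosomes, whose plaque and cadherin genes (Dsp, Pkp and Dsg families) are followed with the keratins below.

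In the GENCODE vM21 annotation of build GRCm38, Krt13, Krt15, Krt19 and Krt14 lie in that order within 90.2 kb of chromosome 11 (chr11:100117327-100207548). The other 6 lie within 685 kb of chromosome 15 (chr15:101347444-102032027), in the order Krt80, Krt7, Krt5, Krt4, Krt8 and Krt18. Krt18 is the only type I gene there, 23.7 kb from Krt8. No annotated gene overlaps a member on the same strand, and genes on the opposite strand overlap Krt80, Krt7, Krt8 and Krt5.

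RefSeq promoter sequence of the same build was usable for 5 of the 10 genes. The promoters of the simple-epithelium pair and of a basal keratin are shown because Krt8 and Krt18 lie side by side and Krt5 stands for the basal keratins followed below. Each line gives 80 bases before and 20 after the RefSeq start, 5′ to 3′ on the strand of the gene, with a match to TATAAA or ATAAAAG in capitals.
Krt8, chr15:102004323-102004422, minus strand: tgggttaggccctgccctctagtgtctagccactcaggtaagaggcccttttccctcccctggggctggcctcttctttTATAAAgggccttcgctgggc
Krt18, chr15:102028136-102028235, plus strand: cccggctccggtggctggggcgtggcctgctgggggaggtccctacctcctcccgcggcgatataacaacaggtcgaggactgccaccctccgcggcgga
Krt5, chr15:101712886-101712985, minus strand: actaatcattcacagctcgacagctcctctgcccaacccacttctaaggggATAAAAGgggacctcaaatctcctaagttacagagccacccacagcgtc
Krt8 held TATAAA starting at position -1, Krt5 held ATAAAAG starting at -29, and Krt18 held neither in this window. The RefSeq start lay 140 bases from the GENCODE start for Krt8, 36 for Krt18 and 7 for Krt5. The positions and the window therefore depend on the start taken. Of 32851 promoters in the table, 3.70% held TATAAA and 1.56% held ATAAAAG in this window on the gene strand, and over 300 bases and both strands 16.6% held either (TATAAA 13.6%, ATAAAAG 5.42%, with overlap counted once).

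The first comparison set the sorted circulating cells against the pooled organs, over all barcodes. Krt80 was the one keratin that was higher in ntCZC, whereas Krt7, Krt8, Krt18 and Krt19, all found in every tissue library, were 10.7-fold to 43.1-fold lower when UMIs were pooled over all libraries. Krt4, Krt5, Krt13, Krt14 and Krt15 had no UMI in any of the 10 ntCZC libraries.

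Krt80 had 1355 UMIs in 9 of 10 ntCZC libraries, at 0 CPM in the lowest, 95.6 in the median and 149 in the highest library. In tissue Krt80 ran from 11.2 CPM through a median of 16.6 to 28.3. The groups overlapped only through ntCZC wt replicate 3, which had no Krt80 UMI where 3 UMIs would have been 18.6 CPM. All other ntCZC libraries, from 28.5 CPM in het replicate 3 upwards, lay above the highest tissue library. The mean was 85.7 ± 50.7 CPM (SD, n = 10) against 17.9 ± 5.69 (SD, n = 9). The edgeR quasi-likelihood test gave a log2 difference of 2.19 (SE 0.27, Benjamini-Hochberg adjusted p = 5.47e-07), and 2.26 without ntCZC wt replicate 3. Before any correction for depth, 30.3% of ntCZC barcodes and 4.48% of tissue barcodes had a Krt80 UMI.

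**Figure D1:**
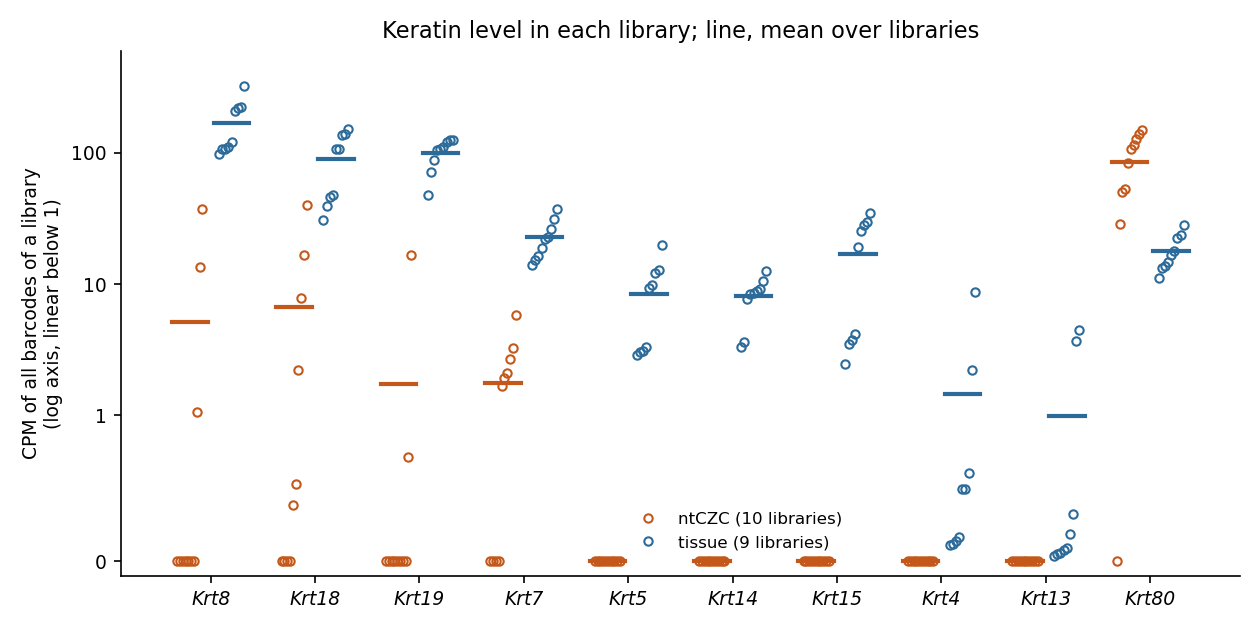
CPM of each keratin in each ntCZC and tissue library (points) with the mean over libraries (lines), on a log axis that is linear below 1 CPM, with libraries at 0 UMIs drawn at 0. Krt80 lies at 28.5 to 149 CPM in 9 of 10 ntCZC libraries and at 11.2 to 28.3 in tissue, and the means of the other keratins lie higher in tissue.

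The simple-epithelium keratins had few ntCZC UMIs, in 2 to 6 of the 10 libraries. Krt8 had 85 UMIs in 3 libraries, at 0 CPM in the median and 37.1 in the highest (het replicate 3), against 97.5, 120 and 324 CPM in the lowest, median and highest tissue library. Krt18 had 84 UMIs in 6 libraries, at most 39.9 CPM (het replicate 1), against 30.6 to 151 CPM with a median of 106 in tissue. Krt19 had 30 UMIs in 2 libraries against 48.1 to 126 CPM in tissue, and Krt7 had 29 UMIs in 6 libraries, at most 5.84 CPM, against 14.1 to 37.4. The ntCZC and tissue libraries did not overlap for Krt7, Krt8 or Krt19, and for Krt18 the highest ntCZC library lay among the tissue libraries. Of the detected genes, 16.2% were lower without overlap in ntCZC and 0.295% were higher.

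The log2 differences were -5.75 for Krt19 (SE 0.65, edgeR adjusted p = 1.61e-07), -5.38 for Krt8 (SE 0.82, adjusted p = 8.60e-06), -3.63 for Krt18 (SE 0.68, adjusted p = 8.86e-05) and -3.54 for Krt7 (SE 0.34, adjusted p = 2.12e-08). Only 5 of the 10 keratins passed the filter on low counts, 4 were called lower and 1 higher. The 4 called lower had UMIs in 2 to 6 of the 10 ntCZC libraries and passed through their tissue levels. A call in the other direction was therefore hardly possible for them. With any 1 of the 10 ntCZC libraries left out, 8 passed the filter and 7 were called lower. Among the 10681 genes tested, 36.0% were called lower and 28.5% higher, so a call by itself does not set a keratin apart in this comparison. Pooled over libraries, the difference was 43.1-fold for Krt19 (95% counting interval 30.2 to 63.9), 22.7-fold for Krt8, 12.4-fold for Krt18 and 10.7-fold for Krt7. Single ntCZC libraries set 3 of these values. The het replicate 3 held 65 of the 85 Krt8 UMIs and 29 of the 30 Krt19 UMIs, and without it the difference was 83.8-fold for Krt8 and, on 1 UMI, 1124-fold for Krt19 (counting interval 202 to 44406). The het replicate 1 held 38 of the 84 Krt18 UMIs, and without it the difference was 21.0-fold for Krt18. Intervals and limits here cover counting error only. In sums over a mixture, fewer cells of a type and less RNA per cell cannot be told apart.

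For the 5 keratins without a ntCZC UMI, a limit of 3 UMIs over the ntCZC libraries, 0.224 CPM, bounds the difference from the pooled tissue level. Krt15, at 16.8 ± 13.4 CPM (SD, n = 9) and 20.5 CPM pooled in tissue, was at least 91.5-fold lower in ntCZC, Krt5 at least 47.3-fold and Krt14 at least 35.4-fold lower. Without tissue wt replicate 2 the limit for Krt5 was 29.9-fold. Krt4 was at least 5.59-fold and Krt13 at least 2.79-fold lower, but tissue wt replicate 4 held 467 of the 583 tissue UMIs of Krt4 and 199 of the 291 of Krt13. Without it the limits were 1.26-fold and 0.998-fold, so that no difference was detectable for Krt13 at this depth. In 4 of the 9 tissue libraries Krt4, and in 6 of 9 Krt13, lay under the 0.224 CPM limit. A count of 0 in all ntCZC libraries was common, and 36.7% of 25796 detected genes had it.

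Most genes of the junctions that keratins attach to were lower in ntCZC too, in a comparison where 36.0% of all genes were lower and 28.5% higher. Of 13 desmosome and plakin genes, 8 were tested, 6 were lower and 1, the plakophilin Pkp3, was higher (0.95), with a median log2 difference of -3.65 where the median of all genes was -0.08. Desmoplakin (Dsp), which ties filaments to the plaque, differed by -12.0 and the desmosomal cadherin Dsg2 by -10.8, Pkp2 by -6.58 and Perp by -4.79. Of 12 epithelial surface and junction genes, 10 were tested and all 10 were lower, among them Cldn7 at -9.47 and the cadherin Cdh1 at -5.02. The filter on low counts kept genes that were high in either kind, so a gene with few ntCZC UMIs could enter only as lower. Of 10 nonclassical monocyte genes, 9 were higher with a median of 2.60 (Cd300e 4.98, Eno3 4.78, Treml4 4.38, Adgre4 4.30), while all 8 endothelial genes were lower with a median of -6.51. The nonclassical monocyte genes moved in the direction of Krt80 and the endothelial genes in the other. The part of either cell type in the Krt80 difference was not tested over all barcodes.

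To compare like cells, the second comparison took barcodes with a UMI of Csf1r, the receptor that marks monocytes and macrophages, and with no product gate. All 5 genes fixed as markers of this gate lay over 2-fold above the other tissue barcodes. Among Csf1r-positive barcodes Krt80 was again higher in ntCZC, by a similar amount, Krt8 and Krt18 were nearly absent, and Krt7 and Krt19 were lower. This comparison shares its libraries with the first.

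Krt80 was at 163 CPM in ntCZC wt replicate 1, at 178, 129, 86.5 and 168 in het replicates 1 to 4 and at 91.0, 172 and 139 in null replicates 1, 2 and 4. In tissue it was at 39.5, 19.4, 36.0, 37.8 and 24.6 CPM in wt replicates 1 to 5, at 53.0 and 18.1 in het and at 15.7 and 24.6 in null. Every one of the 8 ntCZC libraries with 20 or more such barcodes lay above all 9 tissue libraries. The log2 difference was 2.21 (SE 0.21, edgeR adjusted p = 1.17e-07, 8 against 9 libraries). Of 9344 genes tested, 22.3% were called higher and 27.1% lower.

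Krt8 had no UMI in 1368 ntCZC Csf1r-positive barcodes, against 52.7 ± 27.2 CPM (SD, n = 9) in tissue, and was at least 98.1-fold lower when UMIs were pooled. Krt18 had 2 UMIs, an 84.9-fold difference with a counting interval of 23.4 to 702, 1 each in het replicate 4 and null replicate 4. On 1 UMI each, the difference was 133-fold without het replicate 4 and 149-fold without null replicate 4. Krt7, with 22 UMIs each in its own barcode, differed by -2.48 on the log2 scale (SE 0.41, edgeR adjusted p = 7.15e-05). The tissue shares of Krt8, Krt18 and Krt7 are read below against those of Cd79a-positive barcodes.

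Among these barcodes 9 of 10 nonclassical monocyte genes were again higher in ntCZC, with a median of 2.00 (Eno3 3.97, Cd300e 3.39). Of 6 tissue macrophage genes tested, 2 were lower (Mrc1 at -2.80 and Marco at -2.12) and 0 higher, with a median of 0.41, whereas over all barcodes 4 were higher and 1 lower (median 1.91). In Csf1r-positive barcodes the 8 endothelial genes were lower with a median of -6.95. When barcodes with a UMI of Cdh5, Cldn5 or Egfl7, all endothelial, were left out, the share of barcodes with Krt80 was as different as before (15.1% against 3.50%, both on the scale of the next paragraph).

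Shares of barcodes with a UMI depend on depth, and the median Csf1r-positive barcode held 4939 UMIs in ntCZC and 3243 in tissue. Each barcode was therefore thinned to 1000 UMIs. A Krt80 UMI then stood in 15.1 ± 4.88% of ntCZC barcodes (SD, n = 8 libraries, 8.47% to 21.1%) and in 3.75 ± 1.82% of tissue barcodes (n = 9, 1.50% to 7.39%). The difference of 11.4 percentage points had an exact permutation p of 8e-05 over libraries, two-sided, the smallest this design can give. Unthinned shares were 51.9 ± 8.91% and 10.5 ± 5.79%. Barcodes with a UMI of the B cell gene Cd79a and none of Csf1r served as background. There Krt80 stood in 0 of 260 thinned ntCZC barcodes (exact Clopper-Pearson upper bound 1.41%) and in 1.53 ± 1.07% of tissue barcodes, whose median depth was 1733 UMIs. The Csf1r-positive share was above that background in 7 of 9 tissue libraries. In null replicate 2 (1.50% against 3.05%) and wt replicate 5 (1.87% against 3.45%) it was below it and is not read as expression there.

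Within the Csf1r-positive tissue barcodes Krt80 was not spread evenly. Barcodes were split by Treml4 of nonclassical monocytes, Ly6c2 of classical monocytes and C1qa of macrophages, each with none of the other markers. Krt80 stood in 11.7 ± 3.91% of Treml4-positive barcodes (7 libraries, 6.12% to 18.6%), in 3.25 ± 2.66% of Ly6c2-positive and in 1.72 ± 1.08% of C1qa-positive barcodes. The last of these lies close to the background. The Treml4-positive share was the higher in 7 of 7 libraries against C1qa (exact sign-flip permutation p = 0.0156, the smallest possible, Benjamini-Hochberg adjusted p = 0.0469) and in 6 of 7 against Ly6c2 (exact p = 0.0312, adjusted p = 0.0469). Both calls were lost when barcodes were thinned to 500 or to 2000 UMIs (adjusted p = 0.0703), and the call against Ly6c2 was lost in 6 of the 7 fits that left out a library.

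Between Treml4-positive barcodes of blood and organs a difference remained. The share was 22.8 ± 6.70% in 6 ntCZC libraries and 11.7 ± 3.91% in 7 tissue libraries (exact permutation p = 0.00583), a comparison added after the data had been seen. The libraries of the 2 kinds overlapped. In ntCZC itself Treml4-positive barcodes had 28.7% against 6.08% for Ly6c2-positive ones, but only 2 libraries had enough of both, and no p under 0.5 was possible.

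**Figure D2:**
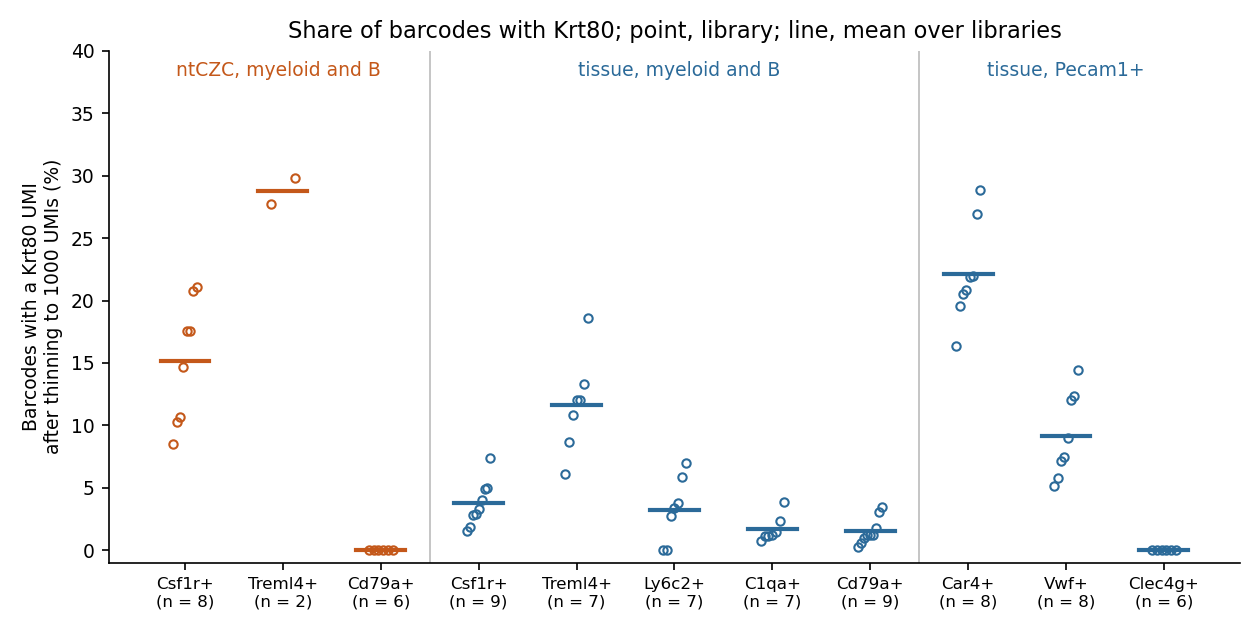
Share of barcodes (percent) with a Krt80 UMI after thinning to 1000 UMIs, each point 1 library and each line the mean over libraries. For Csf1r-positive barcodes every ntCZC library lies above those of tissue, while for Treml4-positive barcodes the ntCZC mean is higher and the libraries overlap. Cd79a-positive barcodes lie at 0 in ntCZC and at 0.248% to 3.45% in tissue, and among tissue endothelial barcodes the Car4-positive ones lie highest.

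A type I partner of Krt80 was looked for in the same barcodes. In tissue, any of the 5 type I keratins stood in 2.35 ± 3.21% of Krt80-positive and in 9.25 ± 3.17% of Krt80-negative Csf1r-positive barcodes. The share was lower in Krt80-positive barcodes in 5 of 6 libraries (exact permutation p = 0.0625, adjusted p = 0.125, where the smallest possible p was 0.0312). Over all thinned Csf1r-positive tissue barcodes, Krt19 stood in 1.40% of those with Krt80 and 6.37% of those without it. Krt18 stood in 1.40% and 1.38%, Krt14 in 0% and 0.184%, and Krt15 in 0% and 0.367%. The gap was thus mostly one of Krt19, and the part of different myeloid cells in it was not tested. In 4 ntCZC libraries no type I keratin UMI was found in 191 Krt80-positive or 877 Krt80-negative thinned barcodes. Across the thinned tissue barcodes, Krt18 stood in 2.77% of barcodes with Krt80 and 4.40% of those without it, and Krt19 in 2.82% and 6.34%. Krt14 and Krt15 were also less frequent beside Krt80, and Krt13 was more frequent, in 2 of 1735 barcodes (0.115%) against 0.0390%. Within classes, Krt18 stood in 8 of 350 Krt80-positive leukocyte barcodes without Csf1r (2.29%) against 1.51% of the Krt80-negative ones. In endothelium Krt15 stood in 4 of 686 (0.583%) against 0.419%, and Krt19 in 2.19% against 2.05%. These shares rest on few barcodes and were not tested.

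The PBMC library, from a younger mouse and not sorted for the tag, held 31 Krt80 UMIs (21.8 CPM). Of these, 21 lay in 27 Csf1r-positive barcodes, 12 of which (44.4%, unthinned) were positive. The other 9 keratins had no UMI, where 3 UMIs would have been 2.11 CPM.

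The UMIs of the simple-epithelium pair in ntCZC had a location of their own. Of the Krt8 UMIs, 77 of 85 lay in 32 of the 271 barcodes with a Cd79a but no Csf1r UMI (11.8%). Of the Krt18 UMIs, 80 of 84 lay in 34 of these barcodes (12.5%). Another 8 Krt8 UMIs lay in 2 barcodes positive for Upk3b, a mesothelial gene. Counting every barcode with a Cd79a UMI, 51 of 283 (18.0%) held Krt8 or Krt18, and 15 held both.

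These barcodes came from 4 of 10 libraries. In het replicate 3, 41 of 78 Cd79a-positive barcodes held either keratin and 12 held both. In het replicate 1 there were 5 of 31, in null replicate 1 there were 4 of 15, and in null replicate 4 there was 1 of 63. The other 6 libraries had none. Without het replicate 3 the count was 10 of 205 (4.88%).

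Depth moved with this pattern. In all 4 libraries the barcodes with a keratin had a higher median of UMIs than those without, 12156 against 8600 in het replicate 3, 22992 against 2628 in het replicate 1, 14016 against 3534 in null replicate 1 and 18075 against 3093 in null replicate 4. In het replicate 3, Epcam, an epithelial adhesion gene, was found in 23 of the 41 with a keratin and in 9 of the 37 without. The same counts were 1 of 5 and 0 of 26 in het replicate 1, 0 of 4 and 1 of 11 in null replicate 1, and 1 of 1 and 0 of 62 in null replicate 4. Thinned to 1000 UMIs, Krt8 stood in 1.92% and Krt18 in 2.31% of the 260 ntCZC Cd79a-positive barcodes without Csf1r, against 3.50% and 1.49% in those of tissue. No doublet caller was run, and the part of doublets in this pattern was not tested.

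**Figure D3:**
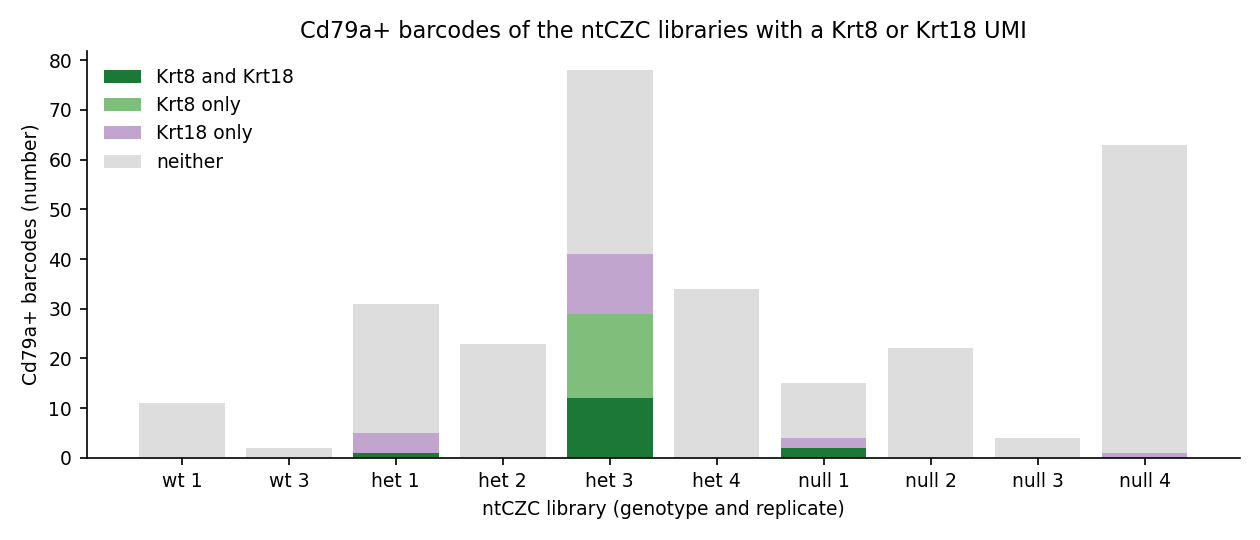
Number of Cd79a-positive barcodes in each ntCZC library, split into those with and without a Krt8 or Krt18 UMI. Het replicate 3 holds 41 of the 51 with such a UMI, and 6 libraries hold none.

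Krt19 in ntCZC rested on 1 barcode. A barcode of het replicate 3 held 29 of the 30 Krt19 UMIs among 15752 UMIs, together with 341 UMIs of Chil3, 20 of Ear1 and 16 of Marco, genes of alveolar macrophages, 3 of Krt79, 3 of Ptprc and 1 of Csf1r, and none of Epcam. The remaining UMI lay in a Upk3b-positive barcode. Krt80, by contrast, was spread over 687 of the 1368 Csf1r-positive barcodes (50.2%), which held 1252 of its 1355 UMIs, and had none in the 271 barcodes with Cd79a and without Csf1r. Of the 12 barcodes with UMIs of both genes, 7 held Krt80.

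The third comparison followed the keratins through classes of tissue barcodes. The classes were leukocytes without Csf1r (Ptprc-positive), myeloid cells (Csf1r), endothelium (Pecam1), gastric surface mucous cells (Gkn1), club cells of the airway (Scgb1a1), principal cells of the epididymis (Spink8), proximal tubule of the kidney (Miox), mesothelium (Upk3b) and basal epithelium (Trp63). Barcodes of leukocytes, myeloid cells and endothelium were left out if they passed a product gate (Miox, Sftpc, Scgb1a1, Gkn1, Umod or Spink8). Endothelial barcodes also held no Ptprc or Csf1r UMI. Epithelial and mesothelial barcodes held no UMI of Ptprc, Csf1r or Pecam1 and passed no second epithelial or mesothelial gate. These rules stood in place of a doublet caller. Leukocyte and myeloid barcodes with a Pecam1, Upk3b or Trp63 UMI were kept, as were endothelial ones with Upk3b or Trp63. Their part in the class levels was not tested. In all, 64.2% of the passing tissue barcodes fell in a class. Of the 5 further markers of each gate, all lay over 2-fold above the other barcodes except 2 for Ptprc, 1 for Scgb1a1 and, for Trp63, the desmosomal cadherin Dsg3, which was at 0. Krt13 did not pass the filter, and alveolar (Sftpc) and thick ascending limb (Umod) gates had too few barcodes in most libraries. The other 9 keratins were tested over 63 sums of a library and class with 20 or more barcodes, with library as a block and leukocytes without Csf1r as reference.

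The levels of the keratins differed between the classes, but the simple-epithelium keratins were also high in basal barcodes. There the mean of Krt18, 842 CPM, was the highest of any class. Those of Krt8 and Krt19, 831 and 906 CPM, came next after gastric barcodes. Gastric barcodes held the most Krt8 and Krt19, basal barcodes the most Krt5, Krt14, Krt15 and Krt4, basal and mesothelial barcodes the most Krt7, and endothelial barcodes the most Krt80. Over the 8 contrasts 31 of 72 pairs of keratin and class were higher than in the leukocyte reference and 10 were lower. The lower calls depended on how the gates were drawn. With each gate on its own, so that barcodes of 2 gates were kept, 31 pairs were higher and 3 lower, those of Krt19 in endothelium and Krt80 in epididymal and basal barcodes. With every gate at 1 UMI, 14 of 48 pairs in 6 classes were higher and 4 lower. The share of genes called ranged from 9.99% higher and 9.38% lower in the myeloid class to 29.1% higher and 37.4% lower in the tubule class.

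In the gastric class 4 of 9 keratins were higher and 0 lower, where 14.9% of genes were higher and 24.0% lower. Krt8 was at 4294 CPM in tissue wt replicate 3, 4147 in wt replicate 4 and 3417 in null replicate 2, the 3 libraries with enough of these barcodes. The log2 difference from leukocytes was 6.16 (SE 0.42, edgeR adjusted p = 2.16e-18). Krt19 ran from 1438 to 2201 CPM in these libraries and differed by 4.04 (SE 0.43, adjusted p = 2.53e-11). Krt18, at 570 ± 112 CPM (SD, n = 3), differed by 4.06 and Krt7, at 98.3 ± 64.1 CPM, by 2.85. A Krt8 UMI stood in 84.3% of thinned gastric barcodes and a Krt19 UMI in 62.3%. In the gastric barcodes of these 3 libraries Krt5 and Krt4 had no UMI, and Krt14 and Krt15 had 1 and 2. Over all 9 libraries gastric barcodes held 1 Krt5, 3 Krt14, 22 Krt15 and 0 Krt4 UMIs.

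Gastric Krt8 exceeded that of the next class, basal epithelium, by 2.53 (edgeR adjusted p = 3.20e-05), and gastric Krt19 by 1.43 (adjusted p = 0.0281). Below the gastric class, Krt8 was at 831 ± 402 CPM in basal (n = 5), 624 ± 300 in epididymal (n = 7), 611 ± 262 in mesothelial (n = 7) and 487 ± 222 in club barcodes (n = 7). No neighbours among these 4 were called different. Club barcodes had more Krt8 than tubule barcodes, at 261 ± 119 CPM (n = 8), by 0.97 (adjusted p = 0.0124), and tubule more than endothelial barcodes by 2.12. Endothelial, leukocyte and myeloid levels, at 74.8, 68.6 and 52.7 CPM, did not part beyond their spread.

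Krt18 followed another order than Krt8. It was at 842 ± 360 CPM in basal (n = 5), 609 ± 209 in epididymal (n = 7), 584 ± 397 in mesothelial (n = 7) and 570 ± 112 in gastric barcodes (n = 3), and no neighbours among these 4 were called different. Club barcodes, at 223 ± 96.8 CPM, had less than gastric ones, which exceeded them by 1.28 (edgeR adjusted p = 0.0286). In tubule barcodes Krt18, at 30.3 CPM, was not called different from leukocytes, while Krt8 was higher by 2.35 (SE 0.33, adjusted p = 8.87e-09). Tubule was the one class of 8 in which Krt8 was called and Krt18 was not, and the difference between the pair was not tested.

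**Figure D4:**
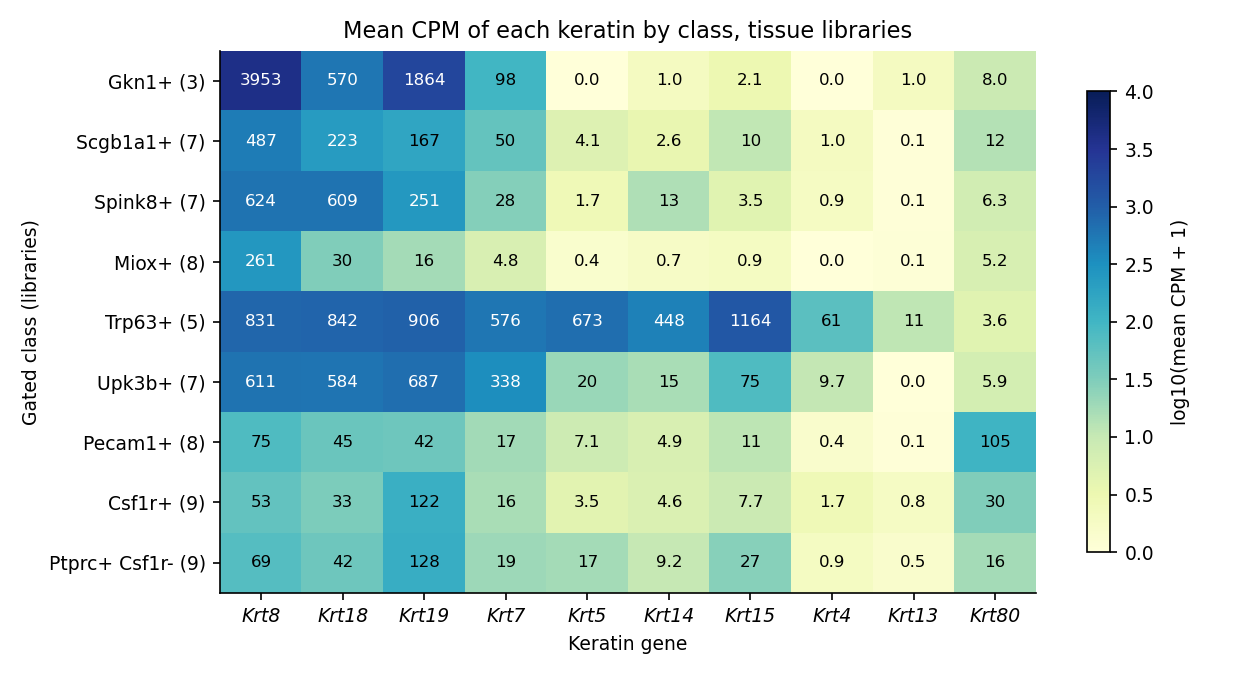
Mean CPM over libraries (printed in each cell) of each keratin in each tissue class, with the log10 of mean CPM + 1 as colour and the number of libraries beside each class. Krt8 and Krt19 are highest in Gkn1-positive, Krt5, Krt14 and Krt15 in Trp63-positive and Krt80 in Pecam1-positive barcodes.

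In basal barcodes 8 of the 9 keratins tested were higher and Krt80 was lower, where 16.5% of genes were higher and 22.4% lower. Krt5 was at 1124 CPM in tissue wt replicate 2, 1125 in wt replicate 3, 595 in wt replicate 4, 286 in null replicate 2 and 237 in the library labelled null replicate 3. The difference from leukocytes was 6.21 (SE 0.42, edgeR adjusted p = 7.96e-17). The 3 wt libraries were above both null libraries for Krt5, a difference that was not tested in this class.

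The type I partners of Krt5 varied more between libraries. Krt15 was at 1686, 2166 and 1385 CPM in wt replicates 2, 3 and 4, 133 in null replicate 2 and 450 in the library labelled null replicate 3. Krt14 was at 542, 831, 115, 533 and 216 CPM in the same order. The 3 wt libraries held more Krt15 than both others, while Krt14 had its lowest value in wt replicate 4. The differences from leukocytes were 6.13 for Krt15 (SE 0.52, adjusted p = 2.96e-14) and 6.11 for Krt14 (SE 0.50, adjusted p = 9.67e-15). Both exceeded the mesothelial class, next in order, by 3.39 and 4.95 (adjusted p = 1.28e-05 and 4.57e-07). After thinning, Krt5 stood in 35.9% of basal and 0.30% of Cd79a-positive barcodes.

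Krt4 and Krt13, the pair of upper lining layers, were concentrated in wt replicate 4. In its basal barcodes Krt4 reached 255 CPM and Krt13 42.5 CPM, while in the other 4 libraries Krt4 ran from 0 to 31.9 and Krt13 from 0 to 8.09. Over all barcodes Krt4 was at 8.68 CPM in wt replicate 4, 2.22 in wt replicate 5 and at most 0.60 in the other 7 tissue libraries with a genotype, and Krt13 was at 3.70 and 4.43 CPM in wt replicates 4 and 5. Both libraries were labelled female. So was null replicate 3, in which Krt4 was at 0.49 and Krt13 at 0.32 CPM, but its 221 epididymal barcodes go against that label. Of the 2 libraries that entered no comparison, the one labelled female held more of both, Krt4 at 11.9 and Krt13 at 9.99 CPM. The other, labelled male, held Krt4 at 0.079 and Krt13 at 0.039 CPM. The part of sex or organ content in these levels was not tested. The Krt4 difference in basal barcodes was 5.25 (SE 0.54, adjusted p = 7.10e-11).

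Krt7 was shared by basal and mesothelial barcodes. It ran from 300.3 to 808 CPM with a median of 602 in basal barcodes (5 libraries) and from 127 to 511.5 with a median of 435 in mesothelial barcodes (7 libraries). The classes overlapped and were not called different (0.67, adjusted p = 0.236). Against leukocytes Krt7 differed by 5.15 in basal (adjusted p = 7.96e-17) and 4.48 in mesothelial barcodes (adjusted p = 2.00e-16). Next in order came gastric barcodes at 98.3 CPM, which mesothelial ones exceeded by 1.64 (adjusted p = 0.00895), and club barcodes at 49.9 CPM. In mesothelial barcodes 7 of 9 keratins were higher and Krt80 was lower, where 17.5% of genes were higher and 25.7% lower. Of these 7 calls, 3 rest on single libraries. Krt15, at a median of 9.07 and a highest level of 332 CPM, differed by 2.74 but by 1.50 without null replicate 3 (edgeR adjusted p = 0.0597). Krt4, with UMIs in 2 of 7 libraries, was no longer called without wt replicate 4 (adjusted p = 0.0976), nor Krt5 without null replicate 2, null replicate 3 or wt replicate 4 (adjusted p = 0.120 to 0.229).

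In epididymal barcodes 6 keratins were higher, Krt4 among them at 2.04 (-0.0064 without library as a block, and not called without null replicate 2 or wt replicate 3), and Krt80 was lower, where 28.8% of genes were higher and 35.0% lower. Krt18 there differed from leukocytes by 4.07 (SE 0.36, adjusted p = 8.39e-15) and Krt8 by 3.64, and Krt14 by 1.87 with 1.73 to 34.3 CPM over 7 libraries. In club barcodes 3 keratins were higher (Krt8 by 3.32, Krt18 by 2.78, Krt7 by 1.91) and 0 lower, where 24.5% of genes were higher and 26.1% lower. In tubule barcodes 1 of the 9 keratins, Krt8, was higher and 5 (Krt5, Krt7, Krt15, Krt19 and Krt80) were lower, where 29.1% of genes were higher and 37.4% lower. The Krt7 difference there, -1.34, was -0.87 and no longer called without tissue wt replicate 1 (adjusted p = 0.116 by edgeR), and it was 0.045 with every gate doubled and 1.03 with every gate at 1 UMI. None of the 5 lower calls in tubule barcodes held with each gate on its own.

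Leukocytes themselves held epithelial keratin UMIs in places. In tissue wt replicate 5, Krt14 was at 56.7 CPM in Ptprc-positive, Csf1r-negative barcodes, but all 36 UMIs lay in 1 of 98 barcodes, and 108 Krt15 UMIs lay in 3. In the other 8 libraries Krt14 did not exceed 7.79 CPM in this class. In thinned Csf1r-positive barcodes Krt8 stood in 2.88%, Krt18 in 1.38% and Krt7 in 1.06%. Cd79a-positive barcodes had 3.50%, 1.49% and 0.88%, so these shares are near the level of that class and are not read as expression. The unthinned shares were 8.39%, 3.82% and 2.68%. The Cd79a-positive class is not shown to lack keratins. In ntCZC it held Krt8 in 11.8% and Krt18 in 12.5% of 271 barcodes, unthinned. The comparison therefore cannot decide whether myeloid barcodes express them. Krt5 was the one keratin called lower in myeloid barcodes than in leukocytes (-1.15, edgeR adjusted p = 0.0371), a call lost without wt replicate 1, wt replicate 5 or null replicate 2 (-0.79 without either wt library). It was also lost with DESeq2 (adjusted p = 0.226) and without library as a block (edgeR adjusted p = 0.149). With gates at 1 UMI, doubled or each on its own it was lost as well (edgeR adjusted p = 0.0603 to 0.234).

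Krt19 stood above this level. It was found in 6.17% of thinned Csf1r-positive barcodes against 2.40% of Cd79a-positive ones. Krt19 was not particular to myeloid barcodes, at 122 ± 65.8 CPM (SD, n = 9) against 128 ± 58.0 CPM in leukocytes without Csf1r (n = 9). The log2 difference between these classes was 0.03 (edgeR adjusted p = 0.97). Among Ptprc-positive barcodes those with a UMI of Ear1, a gene of alveolar macrophages, held Krt19 in 22.4 ± 8.02% (9 libraries, 5.00% to 31.5%), and those without it in 2.89 ± 1.99%. The share was higher with Ear1 in 9 of 9 libraries. In the Ear1-positive barcodes Krt19 was at 496, 227, 291, 254 and 164 CPM in wt replicates 1 to 5, 447 and 403 in het and 302 and 335 in null. This split was chosen after the data had been seen and is given without a test.

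Among the tissue classes Krt80 had its highest level in endothelium. It was at 111, 79.9, 80.7 and 134 CPM in Pecam1-positive barcodes of wt replicates 1 to 4, at 148 and 81.1 in het and at 94.1 and 112 in null. All 8 libraries lay above the highest Csf1r-positive tissue library, at 53.0 CPM, and they overlapped the Csf1r-positive ntCZC libraries, at 86.5 to 178 CPM. Against leukocytes Krt80 differed by 2.42 in endothelium (SE 0.17, edgeR adjusted p = 2.24e-18) and by 0.89 in myeloid barcodes (SE 0.17, adjusted p = 5.28e-05), and endothelium exceeded myeloid barcodes by 1.53 (adjusted p = 1.19e-11). Of the genes tested, 26.6% were higher in endothelium and 27.1% were lower. Krt19 was the one keratin that was lower in endothelium, at -1.84. Krt80 was called lower in tubule, epididymal, basal and mesothelial barcodes, at -2.42, -1.50, -2.02 and -1.98. With each gate on its own the calls in tubule (-0.45) and mesothelial barcodes (-0.64) were lost, and with every gate at 1 UMI that in epididymal barcodes (-0.34). With the gates as reported it was the one keratin of the 9 tested whose level was lower in basal and mesothelial barcodes than in leukocytes.

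Within endothelium Krt80 varied with the marker of the barcode. Pecam1-positive barcodes were split by Car4, mainly of a subset of lung capillaries, Vwf of larger vessels and Clec4g of the liver sinusoid. Car4-negative barcodes can include other capillaries, and vessel type and organ cannot be told apart in pooled organs. A Krt80 UMI stood in 22.1 ± 4.02% of Car4-positive barcodes (16.3% to 28.9% over 8 libraries), in 9.17 ± 3.41% of Vwf-positive ones and in 6.84 ± 1.92% of all Car4-negative ones, which were lower in 8 of 8 libraries. None of 419 thinned Clec4g-positive barcodes held it in the 6 libraries with 20 or more of them, and over all libraries 2 of 427 did (0.468%). This split too was chosen after the data had been seen.

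Much of the keratin signal of the organs lay outside the classes. Of the UMIs of the 9 keratins other than Krt80, 40.8% to 53.6% lay in passing barcodes without a class, against 23.1% of the UMIs of all genes, and for Krt80 the share was 21.0%. Barcodes below the filter held 44.0% of the UMIs of all genes but 8.96% to 26.8% of those of the 9 keratins. Among passing barcodes alone the contrast for these 9 is therefore smaller. The endothelial class held 27.6% of Krt80 UMIs, leukocytes without Csf1r 13.6% and myeloid barcodes 13.5%. The basal class held 18.9% of Krt5, 15.0% of Krt14 and 10.1% of Krt4 UMIs.

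**Figure D5:**
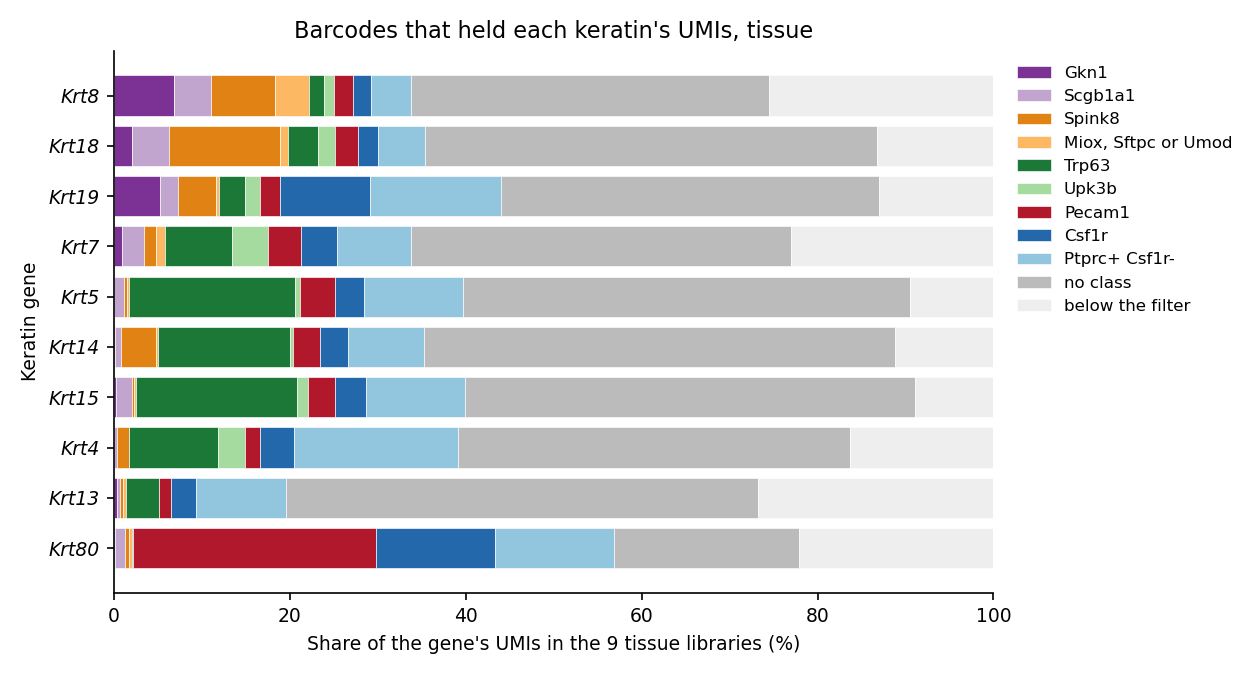
Share (percent) of each keratin's tissue UMIs by class of barcode. Passing barcodes without a class hold 40.8% to 53.6% for 9 keratins and 21.0% for Krt80, and Pecam1-positive barcodes hold 27.6% of Krt80 UMIs.

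Partner keratins shared barcodes more in some classes than in others. Over 60670 thinned tissue barcodes, Krt18 stood in 27.7% of those with Krt8 and in 2.53% of those without it. Within single classes the contrast was smaller, with 44.0% against 16.0% in gastric, 48.7% against 30.8% in epididymal and 46.3% against 29.1% in basal barcodes. In basal barcodes Krt15 stood in 51.8% of those with Krt5 against 26.0% of those without, and Krt14 in 30.4% against 10.5%. Krt19 stood in 62.5% of basal barcodes with Krt7 against 27.9% of those without, but in 40.6% against 35.9% of mesothelial and in 14.3% (3 of 21) against 18.7% of epididymal barcodes. Barcodes of 1 library share its depth and free RNA, and these shares are descriptions.

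Over the 63 sums, log2(CPM + 1) of Krt8 and Krt18 had a Pearson correlation of 0.82, Krt7 and Krt19 of 0.80, and Krt8 and Krt80 of -0.57. The sums share libraries and classes, so these values are descriptions too. The genes most like Krt8 were Dsg2 at 0.90 and Erbb3 and Ptprf at 0.87, and those most like Krt18 were Tmc4 at 0.92, Rab25 at 0.91 and Dsp at 0.89. For Krt19 and Krt7 they were Il17re at 0.87 and 0.88 and Fxyd3 at 0.86 for both. For the basal keratins they were Ivl at 0.88 and Krt15 at 0.86 for Krt5, Krt5 at 0.86 for Krt15, and Trp63, which also gates this class, at 0.75 for Krt14. The genes most like Krt80 were Cd93 at 0.81 and Eng and Rasip1 at 0.80, all known from endothelium.

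Desmosome genes were compared through the same classes. In basal barcodes all 11 desmosome and plakin genes tested were higher than in leukocytes, where 16.5% of all genes were, with a median of 3.54 (Pkp1 5.67). All 8 stratified and basal genes (median 5.20, Col17a1 6.05) and all 10 epithelial transcription factors tested (median 4.86, Grhl3 5.39, Klf5 5.10) were higher there as well. Both lists hold Trp63, which gates this class, so its own call was fixed in advance. Col17a1, Sfn and Itga6 of the stratified and basal list were also used as check markers of the gate. The 4 other type I keratins tested were higher there too, Krt17 by 5.14, Krt23 by 5.00, Krt20 by 4.00 and Krt10 by 1.46. The 1 other type II keratin tested, Krt79, was lower in basal (-4.43), gastric (-4.40) and mesothelial barcodes (-4.33). In gastric barcodes 9 of 11 desmosome genes were higher (Dsc2 7.03) where 14.9% of genes were, and Krt23 and Krt20 by 5.47 and 5.45. Mesothelial barcodes had 7 of 11 higher and 1 lower, led by the plakins Ppl at 4.47 and Evpl at 4.17, where 17.5% of genes were higher. Club and epididymal barcodes each had 7 of 11 higher and 2 lower, with medians of 1.40 and 1.19, where 24.5% and 28.8% of genes were higher. In endothelium 3 of 11 desmosome genes were higher, the plaque gene Jup by 2.33, and 2 were lower, a share near the 26.6% and 27.1% of all genes. In tubule barcodes 3 were higher and 3 lower, where 29.1% and 37.4% of all genes were, and in myeloid barcodes 1 was higher and 1 lower, where 9.99% and 9.38% were.

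The fourth comparison asked whether the keratins differed with the Nalcn genotype. No keratin was called in any of 5 contrasts, where edgeR called 0% of 9379 genes between null and het and between null and wt and 0.107% between het and wt in ntCZC, and 0.0112% and 0% of 17863 genes between null and wt and between het and wt in tissue. DESeq2 called no keratin either. At an unadjusted edgeR p under 0.05 there were 0 of 3 keratins tested in each ntCZC contrast, where 7.31% (null against het), 3.84% (null against wt) and 7.90% (het against wt) of all genes were, and in tissue 2 of 10 between null and wt (Krt13 and Krt18) and 3 of 10 between het and wt (Krt5, Krt15 and Krt18). Over all genes the share at this p was 9.07% and 7.65% in these tissue contrasts. The 3 contrasts in ntCZC share libraries, as do the pair in tissue.

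Krt80 in ntCZC was at 140.2 and 0 CPM in the 2 wt libraries, at 115.5, 107.7, 28.5 and 128 in het replicates 1 to 4, and at 50.6, 149, 53.2 and 83.6 in null replicates 1 to 4. The 3 genotypes overlapped. With sex in the fit the log2 difference between null and het was 0.87 (SE 0.47, edgeR adjusted p = 0.76), although the mean of het libraries was the higher, and 3 of 4 null libraries but only 1 of 4 het libraries were female. Without het replicate 3 it was 0.36. Between null and wt it was 1.12 (SE 0.63, adjusted p = 0.98) and between het and wt 0.25 (SE 0.51, adjusted p = 0.97). Both rest on the 2 wt libraries. Without wt replicate 3 they were 0.68 and -0.17, and without wt replicate 1 the one wt library left had no Krt80 UMI.

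In tissue the largest difference with a small SE was that of Krt18. It was at 46.3, 48.0, 107, 39.5 and 30.6 CPM in wt replicates 1 to 5, at 151 and 136 in het and at 139 and 106 in null. The 4 het and null libraries were above 4 of the 5 wt libraries, and wt replicate 3 lay level with the lower null library. The epididymal barcodes, where Krt18 was high, moved with this order. Spink8-gated barcodes made up 1.15% and 3.04% of the passing barcodes in het, 7.42% and 2.36% in null, and 0.842%, 0.203%, 2.75%, 0% and 0% in wt replicates 1 to 5. Over barcodes without a Spink8 UMI, a choice made after the data had been seen, Krt18 was at 57.6 and 57.8 CPM in het, at 67.0 and 74.1 in null and at 23.0, 39.8, 69.1, 39.0 and 25.4 in wt, so that the same 4 of 5 wt libraries lay lowest. The log2 difference was 1.08 between null and wt (SE 0.32, unadjusted p = 0.00937 and adjusted p = 0.45 by edgeR) and 1.09 between het and wt (SE 0.34, adjusted p = 0.64). These fits took sex from the labels, with null replicate 3 as female, which its epididymal barcodes go against. They were not run without sex. Krt80 in tissue ran from 13.2 to 23.6 CPM in the 5 wt libraries, was at 28.3 and 11.2 in het and at 14.6 and 22.5 in null, so that the genotypes overlapped.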

How the data were processed

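The authors aligned 10x Chromium 3′ v3 reads to the mouse genome mm10 with Cell Ranger (the matrix headers name version 3.0.2, the submitters' processing notes 2.1.1 and Seurat) and deposited, for each library, whole-number UMI counts per gene and called barcode, with no normalization. The keratins and the gene lists were chosen with earlier results of these data known. Named genes were the 10 keratins, the 3 genes most correlated with each over the class sums, and per list at most 4 called genes with the largest change. Barcodes that held 200 genes or more and 25% mitochondrial UMIs or less were gated by at least 1 UMI of Ptprc, Csf1r, Pecam1, Upk3b, Trp63 or Cd79a, 3 of Miox, or 5 of Sftpc, Scgb1a1, Gkn1, Umod or Spink8. Leukocyte, myeloid and endothelial barcodes with a product gate (Miox, Sftpc, Scgb1a1, Gkn1, Umod or Spink8) were left out, and endothelial ones also with a Ptprc or Csf1r UMI. Epithelial and mesothelial barcodes with any second gate among these classes were left out. A Pecam1, Upk3b or Trp63 UMI did not remove a leukocyte or myeloid barcode. No doublet caller was run. Counts were summed per library, or per library and class with at least 20 barcodes, and tested with edgeR 4.0.16 (quasi-likelihood, TMM, filterByExpr, sex as covariate, or library as block in classes, Benjamini-Hochberg at 0.05) in R 4.3.3. DESeq2 1.42.0, other scalings, filters, gates and leaving out each library were alternatives. On simulated counts, edgeR called 89.5% to 100% of genes changed 4-fold. The changed genes were drawn from the more abundant ones, at a fixed dispersion and in 1 contrast of each comparison. These shares do not hold for keratins with few UMIs. For Krt8 the SE of the log2 difference between ntCZC het and wt was 3.43. Barcodes were thinned to 1000 UMIs for shares, which were compared by exact two-sided permutation over libraries (SciPy 1.17.1). Intervals are exact at 95%, and a count of 0 is bounded by 3 counts. Replicate pairs (25) differed by more than sampling noise (lowest chi-square 4.11 per degree of freedom).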

Additional observations from a re-analysis of the deposited data

Results flagged for a closer look

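A library stood far from the rest of its group in 6 of the 28 groups of values looked at, where chance alone would mark about 1 group in 20. Among tissue libraries, Krt4 was at 8.68 CPM in wt replicate 4, with the next library at 2.22. Among ntCZC libraries, Krt8 was at 37.1 CPM in het replicate 3 (next 13.6), Krt18 at 39.9 in het replicate 1 (next 16.5), and Krt19 at 16.5 in het replicate 3 (next 0.713), the last from a single barcode. The share of Ear1-positive tissue barcodes with Krt19 was lowest in wt replicate 5, at 5.00% of only 20 barcodes (next 18.8%), and that of Ear1-negative barcodes was highest in null replicate 2, at 7.62% (next 3.45%).

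Keratin UMIs were also present in libraries that entered no comparison. The tissue library whose title says Nalcn-null replicate 1 but whose strain names no Nalcn allele held 419 UMIs of Krt4, 232 of Krt5, 961 of Krt7, 2571 of Krt8, 352 of Krt13, 149 of Krt14, 1178 of Krt15, 1153 of Krt18, 4967 of Krt19 and 1491 of Krt80. The one whose title says Nalcn-het replicate 3 but whose strain says Nalcn-null held 209 of Krt5, 561 of Krt7, 2249 of Krt8, 277 of Krt14, 188 of Krt15, 1803 of Krt18, 1533 of Krt19 and 282 of Krt80. The PBMC library held 31 of Krt80.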

How the results depend on the processing

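Krt80 stayed higher in ntCZC than in tissue under each alternative run. When single libraries were left out, the log2 difference was 2.06 to 2.36 over all barcodes and 2.12 to 2.32 in Csf1r-positive barcodes, and the difference in thinned share was 10.5 to 12.3 percentage points. That share difference moved with depth, to 5.70 points at 500 UMIs, 21.0 at 2000 UMIs and 41.4 without thinning. The pooled folds and limits were also computed with each library left out, a choice made after seeing the data. The number of keratins called lower in ntCZC was 4 in the fit reported, 9 with no filter on low counts (10 tested), 7 with the replicate number as a block (8 tested), and 4 to 7 with a library left out, because more of them pass the filter. In Csf1r-positive barcodes it was 4 as reported, 8 with no filter, 2 of 3 tested at 2 or more Csf1r UMIs, and 3 with the block. In the classes, 31 pairs were higher and 10 lower as reported, 14 and 4 of 48 with every gate at 1 UMI (6 classes), and 3 lower with each gate on its own. Leaving out libraries gave 29 to 31 higher and 8 to 11 lower, and no replicate block gave 27 and 9. DESeq2 called 4 lower and 1 higher in both comparisons of ntCZC and tissue, and 30 higher and 10 lower in the classes. The Krt5 call in myeloid barcodes was not among these 10.

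The excess of Krt80-positive barcodes among Treml4-positive over Ly6c2-positive ones was 8.41 points as reported, 2.41 at 500 UMIs, 6.58 at 2000 UMIs and 6.71 to 9.96 with a library left out, and that over C1qa-positive ones was 3.18 at 500 and 10.9 at 2000 UMIs. Neither was past the threshold at 500 or 2000 UMIs. The sign turned for Krt80 between ntCZC het and wt (0.25, -0.17 without ntCZC wt replicate 3, and -0.17 to 9.93 over the libraries left out), Krt7 in tubule barcodes (-1.34, 1.03 with every gate at 1 UMI, 0.045 with gates doubled) and Krt4 in epididymal barcodes (2.04, -0.0064 without library as a block). The class calls of Krt5 in myeloid, Krt7 in tubule, Krt4 in epididymal and Krt4, Krt5 and Krt15 in mesothelial barcodes were each lost in 1 to 3 of the 9 fits that left out a library. The causes were not tested. The labels do not say that a replicate number is a mouse, so the numbers were not taken to pair samples. Deviations of libraries with the same number from their group means correlated at -0.45 to 0.23. In groups of 2 libraries the deviations mirror each other, so these values can neither show nor exclude pairing. The ntCZC and tissue libraries of wt replicates 1 and 3, het replicate 2 and null replicate 2 share sex and age. With the number as a block no keratin was called between genotypes. Between ntCZC null and het edgeR called 0 genes (686 at an unadjusted p under 0.05, DESeq2 23) and between null and wt 0 (360, DESeq2 14). Between tissue het and wt it called 0 (1367, DESeq2 73). Depth limits the ntCZC values, where 3 UMIs over all libraries are 0.224 CPM.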
